A study of Mus musculus with 3 samples.

Results

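The genes described here make, store and break down serotonin and histamine, the amines that mast cells release from their granules. They were taken by name, as a fixed list of 7 genes (Tph1, Ddc, Hdc, Slc18a2, Maoa, Maob and Hnmt). Each had 1 probe set naming it alone, so the 7 genes correspond to 7 of 41345 probe sets and to 7 of the 22180 genes that could be named. Expression was measured on 1 whole-transcript array for each of 3 peritoneal populations from naïve female BALB/c mice aged 10 to 11 weeks, with cells pooled from 5 mice. Mast cell progenitors and mature mast cells were both lineage negative or low, c-kit high, positive for FcεRI (the IgE receptor) and T1/ST2, negative for CD127 and CD25, and intermediate for CD16/32. Side scatter was low and integrin β7 high in progenitors, whereas the mature gate took high side scatter and less or no integrin β7. Innate lymphoid cells of type 2 were positive for CD127, CD25 and T1/ST2, negative for FcεRI and CD16/32, and c-kit negative or low. Each array began with 100 cells sorted in successive rounds, whose RNA was amplified. The populations had 1 array each, which leaves values without an error and differences without a test. Among 100 pooled cells, fewer cells carrying a transcript and less transcript per cell cannot be told apart.

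Serotonin is made from tryptophan in a pair of steps. Tryptophan hydroxylase (Tph1 outside the nervous system) sets the pace and uses the cofactor tetrahydrobiopterin, and aromatic amino acid decarboxylase (Ddc) completes the amine. Histamine is made from histidine in a single step by histidine decarboxylase (Hdc), which like Ddc needs pyridoxal phosphate. Both amines are carried into granules by the vesicular monoamine transporter encoded by Slc18a2, and in rodents mast cells hold both. Serotonin is oxidised at the mitochondrial surface by the monoamine oxidases (Maoa, Maob), whose aldehyde product is cleared by aldehyde dehydrogenases, whereas histamine inside cells is methylated by Hnmt.

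The sequences around the start sites of Tph1, Hdc and Slc18a2 are shown because these 3 genes for synthesis and loading had higher values in mature mast cells. They come from RefSeq on GRCm38.p6, which held windows of 300 bases, from 250 before to 50 after the start, for 6 of the 7 genes. Maob was not among them. Sequences run 5′ to 3′ on the strand of the gene, and capitals mark the matches to the words named after them.
Tph1, upstream start, chr7:46672488-46672787, minus strand: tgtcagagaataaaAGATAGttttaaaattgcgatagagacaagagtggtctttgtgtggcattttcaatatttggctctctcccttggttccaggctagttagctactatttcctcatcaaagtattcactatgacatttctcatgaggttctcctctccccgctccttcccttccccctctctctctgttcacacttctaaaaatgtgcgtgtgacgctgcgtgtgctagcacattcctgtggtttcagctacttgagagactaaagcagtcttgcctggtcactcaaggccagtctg
Tph1, downstream start, chr7:46667328-46667627, minus strand: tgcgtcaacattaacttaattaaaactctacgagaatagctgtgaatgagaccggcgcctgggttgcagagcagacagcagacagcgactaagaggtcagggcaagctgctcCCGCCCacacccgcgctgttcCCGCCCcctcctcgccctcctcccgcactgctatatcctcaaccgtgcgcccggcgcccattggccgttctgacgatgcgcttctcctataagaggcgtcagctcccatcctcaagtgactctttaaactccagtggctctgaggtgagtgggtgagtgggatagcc
Hdc, chr2:126618629-126618928, minus strand: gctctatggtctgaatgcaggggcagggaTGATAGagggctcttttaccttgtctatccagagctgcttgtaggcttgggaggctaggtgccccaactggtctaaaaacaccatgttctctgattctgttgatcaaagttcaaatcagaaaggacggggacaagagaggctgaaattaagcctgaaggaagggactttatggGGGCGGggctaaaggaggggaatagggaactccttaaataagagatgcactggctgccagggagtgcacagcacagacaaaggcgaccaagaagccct
Slc18a2, chr19:59260628-59260927, plus strand: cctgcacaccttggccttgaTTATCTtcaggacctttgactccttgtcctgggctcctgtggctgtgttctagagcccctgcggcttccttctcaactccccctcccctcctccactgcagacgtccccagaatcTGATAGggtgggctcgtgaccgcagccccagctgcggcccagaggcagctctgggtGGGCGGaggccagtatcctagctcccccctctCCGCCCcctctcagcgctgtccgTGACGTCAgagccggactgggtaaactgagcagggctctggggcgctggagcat

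The words searched on both strands were those bound by GATA factors (AGATAA or AGATAG or TGATAA or TGATAG), E-boxes of the MITF type (CACATG or CACGTG), the cAMP response element (TGACGTCA), the GC box (GGGCGG) and the TATA box (TATAAA). One of the GATA words began 236 bases before the upstream start of Tph1, 221 before that of Hdc, and 230 and 115 before that of Slc18a2. Maoa, whose levels differed by at most 0.05 between arrays, had one as well, 238 bases before its start. Of all 32851 windows in the table, 29.8% held such a word. The cAMP response element lay across the start of Slc18a2, where its first base was 4 bases before it, and 1.79% of all windows held that word. GC boxes were found in the windows of the downstream Tph1 start, Hdc, Slc18a2 and Maoa, and in 35.7% of all windows. No window of the 6 genes held either E-box word, against 20.4% of all windows. The TATA word was found at Ddc, 68 bases before its upstream start, and in 13.6% of all windows. A match is a description of the letters and does not show a bound site.

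The labelled populations were set against their markers first. All 7 mast cell markers were above the 95th percentile of the mature mast cell array, 4 of 7 were so on the progenitor array and 1 of 7 on the innate lymphoid array. Of 7 innate lymphoid markers, 3 were above that percentile on the innate lymphoid array and 0 on each mast cell array. Of the proteins that progenitors were sorted as carrying, only FcεRI and c-kit have transcripts given here. Those for the IgE-binding and β chains of FcεRI were below the median of the progenitor array, although its label calls the cells FcεRI positive. The sort read protein and the array reads RNA, so these are different measures. Fcer1a, the IgE-binding chain of FcεRI, was at 8.87 in mature mast cells, 5.37 in progenitors and 5.05 in innate lymphoid cells, and Ms4a2, the β chain of FcεRI, at 8.13, 6.25 and 5.92, so that both lay below the median on the progenitor array although its cells were sorted as FcεRI positive. Kit, which encodes c-kit, was at 10.29, 6.88 and 6.63 in the same order, so the progenitors sorted as c-kit high were 0.26 above the innate lymphoid cells. The progenitor level of Kit was nevertheless above the median (6.32) and just above the 75th percentile (6.86) of that array. For all 22180 genes, 58.3% of levels were exactly equal, to 6 decimals, on both mast cell arrays, 57% on the progenitor and innate lymphoid arrays, and 47.9% on all 3 arrays. A tie therefore is the usual outcome in this table and is not a measure of equal expression.

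Mature mast cells had the highest level for 5 of the 7 genes, of which Maoa was higher by 0.05. Tph1 stood out with a difference of over 3 on the log2 scale from both other populations, and Hdc, Slc18a2 and Maob lay 0.83 to 1.49 above them. Ddc, Maoa and Hnmt differed by at most 0.05. Of all genes, 7.34% were highest in mature mast cells. Progenitors and innate lymphoid cells had nearly the same value for each of the 7 genes, with 0.27 for Tph1 as the largest difference between them.

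**Figure D1:**
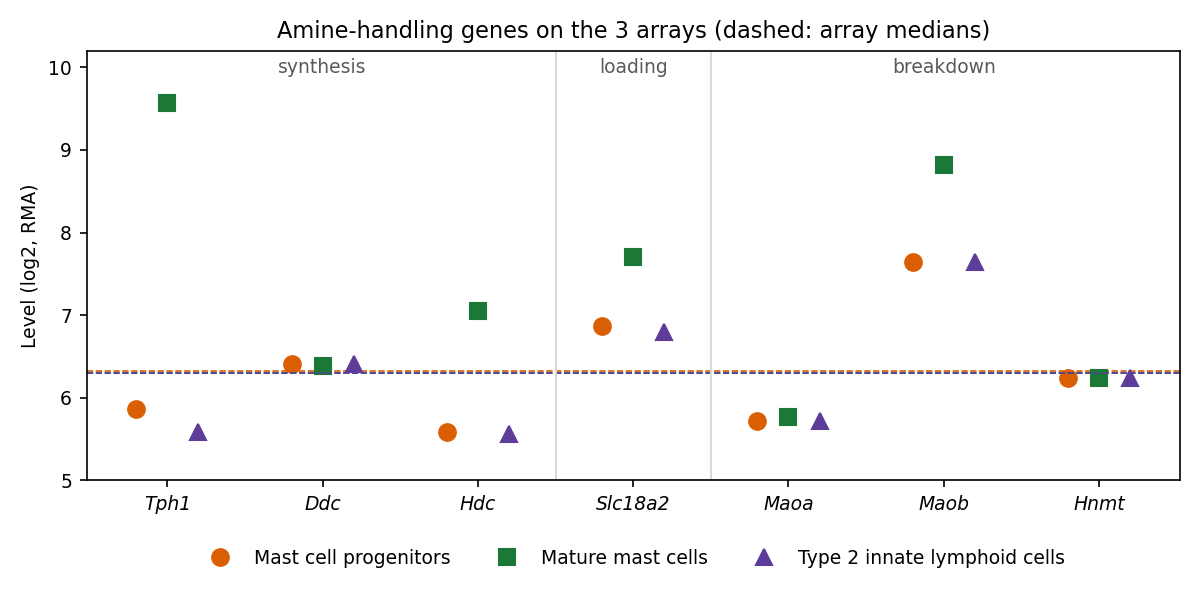
Levels (log2, from RMA) of the 7 genes on the vertical axis, with 1 point for each of the 3 arrays and dashed lines at the array medians over single-gene probe sets (6.30 to 6.32). Mature mast cells (squares) lie above the other points for Tph1 (9.57), Hdc (7.05), Slc18a2 (7.70) and Maob (8.82), and the points of Ddc, Maoa and Hnmt nearly coincide.

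Tph1, the pacing enzyme of serotonin synthesis, had a log2 level of 9.57 in mature mast cells, 5.86 in progenitors and 5.59 in innate lymphoid cells. The mature cells were high and the other arrays lay below their medians of 6.32 and 6.30. The difference was 3.70 from progenitors and 3.98 from innate lymphoid cells. Since the dimmer levels are below the median, the folds are given against that median, as at least 9.54 and at least 9.62.

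Ddc, which forms serotonin from the product of Tph1, did not show the difference measured for Tph1. Its log2 level was 6.39 in mature mast cells, 6.41 in progenitors and 6.41 in innate lymphoid cells, just above the median on each array. Progenitors and innate lymphoid cells were exactly tied, and mature cells were lower by 0.02. So near the median, a difference in Ddc may not be seen.

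Hdc, which makes histamine, had a log2 level of 7.05 in mature mast cells, 5.59 in progenitors and 5.56 in innate lymphoid cells. It was above the median in mature cells alone of these 3 populations. The difference was 1.47 from progenitors and 1.49 from innate lymphoid cells. Measured against the medians of the dimmer arrays, these are folds of at least 1.67 and at least 1.68. The progenitor and innate lymphoid levels differed by 0.03.

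Slc18a2, the transporter that fills granules with both amines, was above the median on all 3 arrays. Its log2 level was 7.70 in mature mast cells, 6.87 in progenitors and 6.80 in innate lymphoid cells. Mature cells were 1.78-fold above progenitors and 1.86-fold above innate lymphoid cells, and so did not reach 2-fold in either comparison.

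The breakdown enzymes did not share a pattern. Maob, a monoamine oxidase, was at 8.82 in mature mast cells, 7.64 in progenitors and 7.64 in innate lymphoid cells on the log2 scale. Mature cells were high, by 2.26-fold over each of the others, which were exactly tied with each other. Maoa, the oxidase that prefers serotonin, was below the median on each array, at 5.77 in mature mast cells, 5.72 in progenitors and 5.72 in innate lymphoid cells. Hnmt, which methylates histamine, was listed at 6.24 on all 3 arrays, an exact tie just below the medians. At these levels a difference in Maoa or Hnmt may not be seen.

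Counts were set beside those of all genes. A gene was counted at 2-fold or 4-fold when its measured log2 levels differed by at least 1 or 2 and the brighter level was above the median of its array, with the dimmer level left as measured, for the 7 genes and for all genes alike. For mature mast cells against progenitors, 3 of the 7 genes were counted as 2-fold higher (Tph1, Hdc and Maob), against 1.93% of all genes, and 1 as 4-fold higher (Tph1), against 0.834%. Hdc was counted on a measured level below the progenitor median, and against that median its fold is bounded at 1.67. None of the 7 was 2-fold lower, against 0.509% of all genes, or 4-fold lower, against 0.113%. The median difference was 0.83 over the 7 genes and 0.00 over all genes. More genes overall lay above progenitors than below them, with 428 against 113 at 2-fold, and whether this has a part in the differences of the amine genes was not tested.

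For mature mast cells against innate lymphoid cells, again Tph1, Hdc and Maob were counted as 2-fold higher, 3 of 7 against 1.34% of all genes, and Tph1 as 4-fold higher, 1 of 7 against 0.573%. The bound for Hdc is 1.68 here. No member was 2-fold lower, against 1.26% of all genes, or 4-fold lower, against 0.401%. The median difference was 0.89 for the 7 genes and 0.00 for all. Both comparisons use the same mature mast cell array, so they are not independent of each other. Over all genes, 1.08% were 2-fold above both other populations in mature mast cells.

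For progenitors against innate lymphoid cells, none of the 7 genes reached 2-fold in either direction. Of all genes, 0.766% were 2-fold higher and 1.88% 2-fold lower in progenitors, and 0.207% and 0.888% passed 4-fold in these directions. Ddc, Maoa, Maob and Hnmt were exactly tied, 4 of 7 genes, and 57% of all genes were tied in this comparison too. The 7 mast cell markers were divided in this comparison. Kit, Fcer1a and Ms4a2 differed by 0.26 to 0.33, close to the 0.27 of Tph1, whereas 4 of 7 were at least 2-fold higher in progenitors by measured levels, the protease genes Cpa3 (by 7.01), Mcpt4 (by 5.02), Cma1 (by 3.58) and Tpsb2 (by 1.09).

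**Figure D2:**
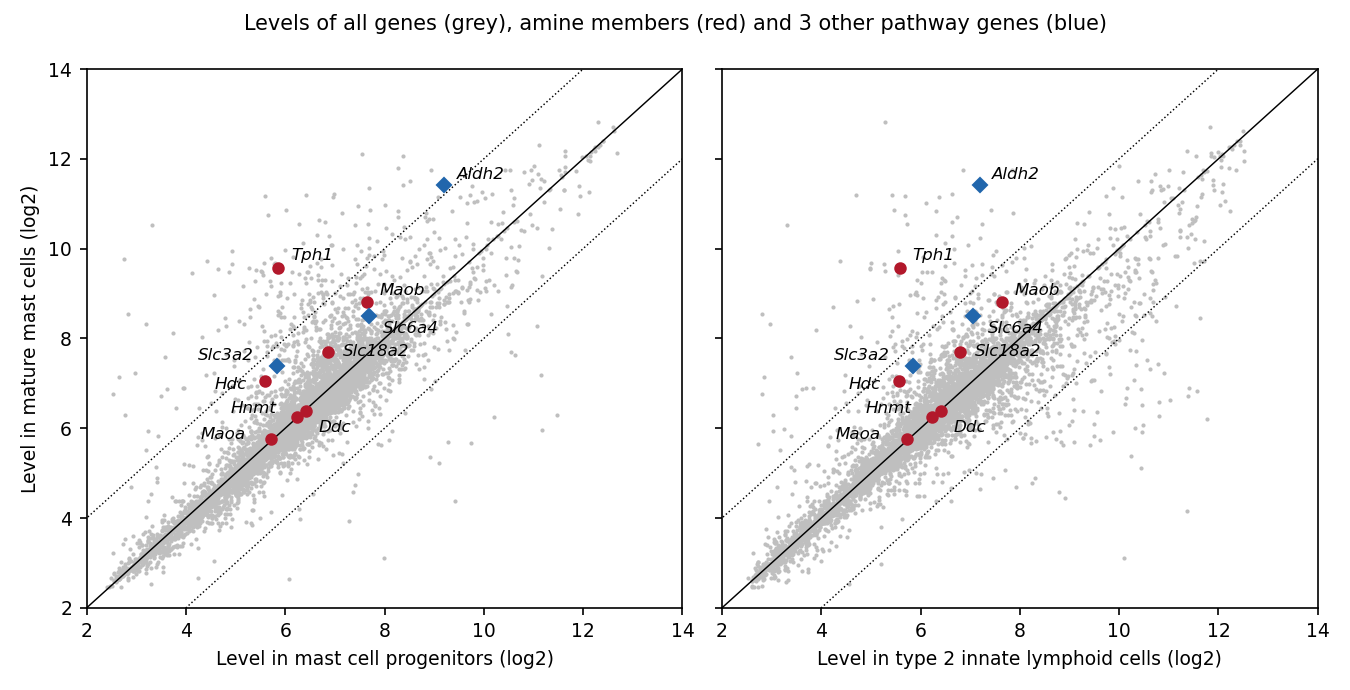
Log2 levels in mature mast cells (vertical axis) against those in progenitors (left) and innate lymphoid cells (right), with all 22180 genes in grey, the 7 amine genes as red circles and 3 further pathway genes as blue diamonds; the solid line marks equal levels and the dotted lines a 4-fold difference. Tph1 and Aldh2 lie above the upper dotted line in both panels, while Ddc, Maoa and Hnmt lie on the line of equal levels.

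The other genes of the pathway were counted by the same rules. Of 74 genes in 10 lists, 68 were analysed here. Against progenitors, 2 of the 68 were counted as 2-fold higher in mature mast cells (Slc3a2 and Aldh2) and 0 lower. Against innate lymphoid cells, 3 were higher in mature cells (Slc3a2, Slc6a4 and Aldh2) and 0 lower. Progenitors were 2-fold above innate lymphoid cells for Aldh2 alone among the 68, with 0 lower. Over all genes the shares higher and lower were 1.93% and 0.509%, 1.34% and 1.26%, and 0.766% and 1.88% in these comparisons. The median difference of the 68 genes was 0.00 in each comparison, as for all genes. In the order mature against progenitor, mature against innate lymphoid and progenitor against innate lymphoid, 29, 38 and 29 of them were exactly tied. Shares of all genes tied were 58.3%, 60.6% and 57% in that order. The brighter level was above its array median for 47, 49 and 48 of the 68.

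Aldh2, the mitochondrial dehydrogenase that clears the aldehydes left by monoamine oxidases, was the one pathway gene past 4-fold beside Tph1. By its brighter probe set its log2 level was 11.41 in mature mast cells, 9.20 in progenitors and 7.19 in innate lymphoid cells. Mature cells were 4.63-fold above progenitors, and progenitors 4.01-fold above innate lymphoid cells, a fold that no longer passed 4 with arrays shifted to one median. The other probe set of Aldh2 was at 6.07 on all 3 arrays, so its probe sets disagree. With the mean of both, Aldh2 passed 4-fold between mature mast cells and innate lymphoid cells but not in the other comparisons. Aldh2 acts on many aldehydes, and its values do not concern amines alone.

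Slc6a4, the plasma membrane transporter that takes up serotonin, had the same order as Aldh2. Its log2 level was 8.49 in mature mast cells, 7.68 in progenitors and 7.06 in innate lymphoid cells. Mature cells were 2.69-fold above innate lymphoid cells, and the progenitor level lay between, 0.81 below mature cells and 0.62 above innate lymphoid cells, neither of which reached 2-fold. Of 8 measured genes for other amine transporters, 7 did not reach 2-fold in any comparison. Among them were Slc18a1, the other vesicular monoamine transporter, at 6.27 on all 3 arrays, and Slc29a4, a plasma membrane monoamine transporter, at 7.21 in mature mast cells, 7.46 in progenitors and 7.39 in innate lymphoid cells.

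Supply of precursors and cofactors was covered by 3 lists. Of 8 amino acid transport genes, Slc3a2 was higher in mature mast cells, at a log2 level of 7.38 against 5.84 on each of the other arrays, which is at least 2.10-fold over the progenitor median. Slc3a2 encodes the heavy chain that carries large neutral amino acid transporters, tryptophan among their substrates, to the cell surface. Its light chain partners were not alike. Slc7a5 was higher in progenitors, at 7.56 against 6.97 on each of the other arrays, and Slc7a8 was higher in mature cells, at 7.20 against 6.40 and 6.39. Neither reached 2-fold. None of the 7 measured tetrahydrobiopterin genes reached 2-fold, with differences between mature mast cells and progenitors from -0.06 to 0.31. Gch1, the first enzyme of that route, was at 6.25 in mature mast cells, 6.31 in progenitors and 6.35 in innate lymphoid cells. Pdxk, the kinase that forms pyridoxal phosphate, was at 6.38 in mature mast cells, 6.03 in progenitors and 6.16 in innate lymphoid cells.

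Routes that compete for the precursors, other amine synthesis and the breakdown of histamine outside cells showed no difference past 2-fold. None of 8 genes that use tryptophan or histidine otherwise reached 2-fold in any comparison. Of all genes, at most 1.93% did so in any one direction of a comparison. Hal, which opens histidine breakdown, was at 6.34 on all 3 arrays. All 5 genes of other amine synthesis were tied on all 3 arrays, among them Tph2, the neuronal tryptophan hydroxylase, at 5.82. Aoc1, the diamine oxidase that degrades histamine outside cells, was below the median on each array, at 5.59 in mature mast cells, 5.90 in progenitors and 5.56 in innate lymphoid cells.

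**Figure D3:**
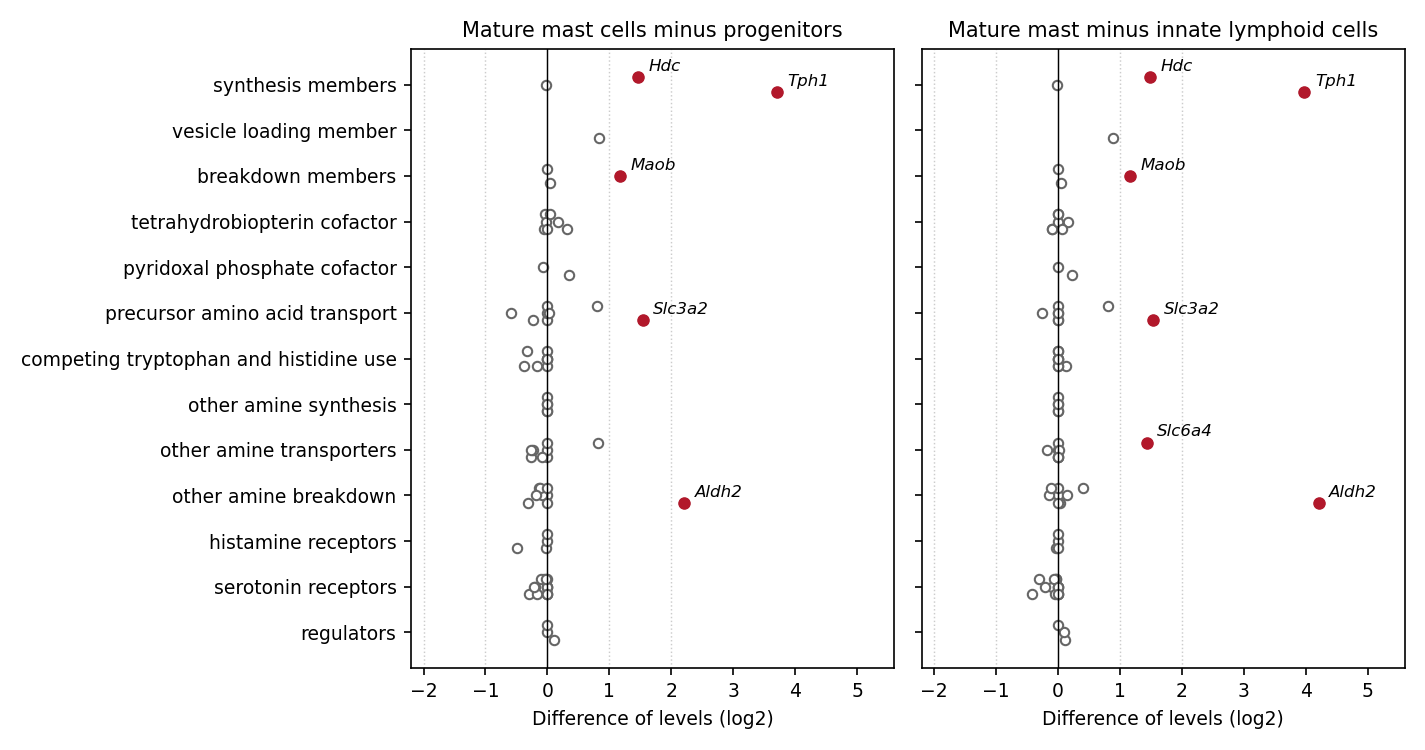
Differences of log2 levels (horizontal axis) for the measured genes of each list, mature mast cells minus progenitors (left) and minus innate lymphoid cells (right); filled points are genes past 2-fold with the brighter level above its array median, and dotted lines mark differences of 1 and 2. Filled points lie to the right of 0 in both panels, led by Tph1 (3.70 and 3.98) and Aldh2 (2.21 and 4.21), and most open points lie at or near 0.

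Receptors for the amines showed no difference past 2-fold. Among the 4 histamine receptors, Hrh4, found mainly on blood cells, was highest in progenitors, at a log2 level of 8.34 against 7.84 on each of the other arrays. Hrh1 was at 7.22 in mature cells and 7.26 in both other populations, and Hrh2 at 6.91 on each array. Of 14 serotonin receptor genes, 0 reached 2-fold. Their differences between mature mast cells and progenitors ran from -0.29 to 0.00, with 7 exactly tied. Of all genes, 0.509% to 1.93% passed 2-fold in any one direction of a comparison, so counts of 0 in short lists are close to these shares. None of the 3 transcription factor genes listed reached 2-fold in any comparison. Gata1 was highest in mature mast cells, at 6.54 against 6.43 on each of the other arrays. Gata2 was at 7.59 in mature mast cells, 7.59 in progenitors and 7.50 in innate lymphoid cells, and Mitf was tied at 6.69 on each array.

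Markers of other cells that handle these amines were set beside the results. Basophils make histamine, and platelets carry serotonin. For the 3 basophil markers log2 levels were summed, so that opposite differences of single genes cancel. The sums were 20.22 in mature mast cells, 20.22 in progenitors and 19.76 in innate lymphoid cells. Mcpt8, a protease gene of basophils, was at 6.42, 7.08 and 6.67 in that order and so lowest in mature mast cells. Prss34 was at 7.67, 7.11 and 7.11 and Cd200r3 at 6.13, 6.04 and 5.98, both highest in mature mast cells, as Hdc was. Cd200r3 was below the median on each array. The 4 platelet markers summed to 26.67, 26.93 and 26.67, and Pf4 was at 6.63 on each array. Of 31 measured markers in 8 lists of other peritoneal cell types, 0 reached 2-fold in any comparison and 0 lay above the 95th percentile of an array. Their largest difference was 0.77. Of all genes, 0.509% to 1.93% passed 2-fold in any one direction of a comparison, so a count of 0 among 31 is close to these shares. Mast cell markers were higher in mature mast cells as well. Of the 7, 6 were counted as 2-fold higher in mature mast cells than in progenitors. Their summed log2 level was 74.82 in mature cells, 59.89 in progenitors and 42.28 in innate lymphoid cells. Between progenitors and innate lymphoid cells the median difference was 1.09 for the markers and 0.00 for the 7 amine genes. The markers were divided here. Kit, Fcer1a and Ms4a2 differed by 0.26, 0.32 and 0.33, close to the 0.27 of Tph1, and only the protease genes differed by more. The part of the marker differences in the amine results was not tested.

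**Figure D4:**
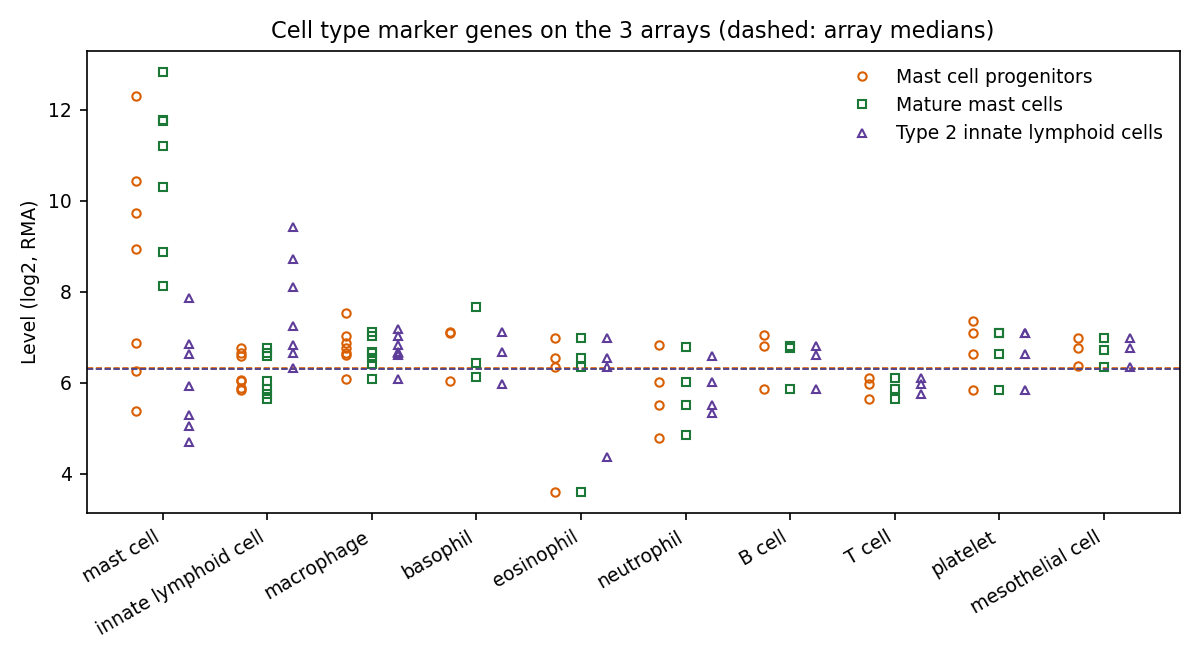
Log2 levels (vertical axis) of marker genes of 10 cell types, with 1 open symbol for each gene and array and dashed lines at the array medians. Mast cell markers are high in mature mast cells (8.13 to 12.83) and spread widely in progenitors (5.37 to 12.30), innate lymphoid markers reach 9.41 in innate lymphoid cells, and the other lists lie at like levels on the 3 arrays.

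The genes whose levels followed the same course were sought by the distance between levels centred on the mean of each gene, over 3 arrays and 10028 named genes above the median on at least 1 array. The nearest to Tph1 were Ndst2, an enzyme of heparin sulfation, Fcer1a, the IgE-binding chain of the receptor used in the sort, and Acer3, a ceramidase gene, at distances of 0.08, 0.15 and 0.21. Ndst2 was at a log2 level of 10.59 in mature mast cells, 6.81 in progenitors and 6.64 in innate lymphoid cells. Acer3 was at 8.27, 4.80 and 4.57 in the same order. The nearest to Hdc were Mt1, a metallothionein gene (8.85, 7.40 and 7.37), Lxn, which encodes the carboxypeptidase inhibitor latexin (8.68, 7.21 and 7.21), and Oard1 (6.94, 5.44 and 5.44), each at a distance of 0.02. The nearest to Maob were Hacd3, Diablo and Stt3a, at distances of up to 0.02. Diablo, which encodes a mitochondrial protein that promotes cell death, was at 7.36, 6.18 and 6.18. With 3 arrays many genes share a course of this kind, so the likeness is a description.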

How the data were processed

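Deposited were log2 levels of 41345 probe sets. The authors obtained them by RMA, as the submitters' processing notes name it; the array software, version and genome build are not given in the sources used here. Their range, 2.23 to 13.7, gave the log2 scale. RMA sums up each probe set by median polish, which with 3 arrays can return exactly equal levels. Names came from the gene table of the platform, in which 23521 name 1 gene, 1814 several and 16010 none. Entrez identifiers of 23328 matched RefSeq and changed no symbol. A gene with several probe sets was represented by the brightest on average. As floor served each array's median of single-gene probe sets (6.32 on the progenitor array, 6.30 on the others). Differences were taken with Python 3.11.15 and pandas 2.3.3, and the counting was checked on simulated data. The 3 arrays limit the precision, and depth does not apply.

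The members and lists were chosen with earlier results of these data known. Named were the 7 members, pathway genes past 2-fold, genes that represent a list, markers, and for each member spanning at least 1 the 3 nearest genes by centred distance, leaving out provisional, Mir, Snor, small Cajal body RNA, Olfr and Vmn symbols. Motif words and the further genes that represent a list were picked with sequences or values in view. Alternatives were a floor at the 75th percentile or none, arrays shifted to one median, quantile normalization, and the mean of probe sets.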

Additional observations from a re-analysis of the deposited data

How the results depend on the processing

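Over 5 alternatives, the 21 differences of the 7 genes moved by at most 0.05 and kept their side of the 2-fold and 4-fold rules. Their counts at 2-fold and 4-fold were equal to those given. The floors do not enter a difference, and with 1 probe set per gene the mean of probe sets equals the value given. Only the shift to one median and quantile normalization could therefore move these differences. With arrays shifted to one median, 6 in place of 5 of the 7 genes were highest in mature mast cells. The count of other pathway genes at least 4-fold higher is 1, Aldh2, in each comparison. With the mean of probe sets it was 0 for mature mast cells against progenitors and 0 for progenitors against innate lymphoid cells. With arrays shifted to one median it was also 0 for progenitors against innate lymphoid cells, where the difference was 2.00. Each of the 7 genes has 1 probe set, so no second reading of it exists. No replicate could be left out and no paired analysis was possible because each population has 1 array. Levels near the array median, as for Ddc and Hnmt, or below it, as for Maoa, limit what could be seen.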
